A study of Mus musculus with 15 samples.

Results

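Leukocytes, the white blood cells, are a small part of the kidney, and their abundance in RNA from whole tissue is followed through genes that tubular, vascular and glomerular cells express little or not at all. The 36 leukocyte marker genes described here were a fixed list of names: 8 genes listed as pan-leukocyte (Tyrobp and Fcer1g among them are mainly myeloid and natural killer cell genes), 17 of macrophages and monocytes, 4 of the MHC class II antigen-presentation machinery, 4 of T cells and 3 of B cells and plasma cells. Their Ensembl transcripts were matched to symbols with GENCODE mouse M21 and the FPKM values (fragment counts scaled by transcript length and by library depth) were summed per gene. Of the 36, 27 had at least 1 transcript listed in the files of all 15 mice, and 25 of these reached 1 FPKM in at least 5 mice and were tested, among 12359 genes tested of 13923 with such a transcript.

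Kidneys of male wild-type (WT) C57BL/6 mice, bought at an age of 8 weeks per the study's methods, were sequenced after 28 days of treatment. Control mice (n = 5) carried pumps with saline and received water by gavage. Ang II mice (n = 5) were infused with angiotensin II, the peptide that constricts vessels and raises blood pressure, at 500 ng/kg/min and also received water. Ang II + QDG mice (n = 5) had the same infusion and received Qingda granule (QDG), a herbal preparation, at 1.145 g/kg/day. The saline, pump and gavage details come from the study's methods, and infusion of angiotensin II models hypertension with its renal injury rather than primary renal inflammation. Mice are numbered 1 to 5 within a group only as names.

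Resident macrophages form a network around the tubules and vessels of the kidney, engulf debris and immune complexes, and many of them carry MHC class II. Class II molecules are pairs of chains that are assembled with the invariant chain in the endoplasmic reticulum, loaded with peptide in endosomes after cathepsins have cut the invariant chain, and shown to CD4+ T cells. In RNA from whole tissue, fewer cells of a type and less RNA per cell cannot be told apart.

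The totals implied by the values were 68930500 to 81337000 reads or fragments per mouse, which gives Cd74 7068 to 19498 reads and Cd68, a low member, 60 to 300 reads. The tissue label was borne out by Slc34a1, the proximal tubule phosphate carrier, at 1923 to 3065 FPKM and by Umod, the uromodulin of the thick ascending limb, at 695 to 1308 FPKM in the 15 mice. In the files, the larger of 2 group means of every listed transcript was 0.5 FPKM or more, with 1 list for Control and another for the remaining groups. Transcripts that the authors assembled and that carry no gene name took 9.57% to 11.9% of the FPKM, so the sums per gene cover annotated transcripts only.

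1 mouse stood apart for these genes before any comparison. Ang II + QDG mouse 4 was the highest of the 15 mice for 18 of the 25 tested members, where it was highest for 7.4% of all genes tested, and it was the highest of its own group for 21 of the 25, against 19.6% of all genes tested. The 27 listed members summed to 443, 524, 415, 447 and 335 FPKM in Control mice 1 to 5, to 362, 292, 258, 278 and 309 FPKM in Ang II mice and to 307, 441, 286, 752 and 248 FPKM in Ang II + QDG mice. Mouse 4 of the last group lay above every other mouse, at 2.54 times the median of the 4 other mice given QDG. All Ang II values but that of mouse 1 lay below the lowest Control value. The counts of members called are therefore given with it and without it.

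**Figure D1:**
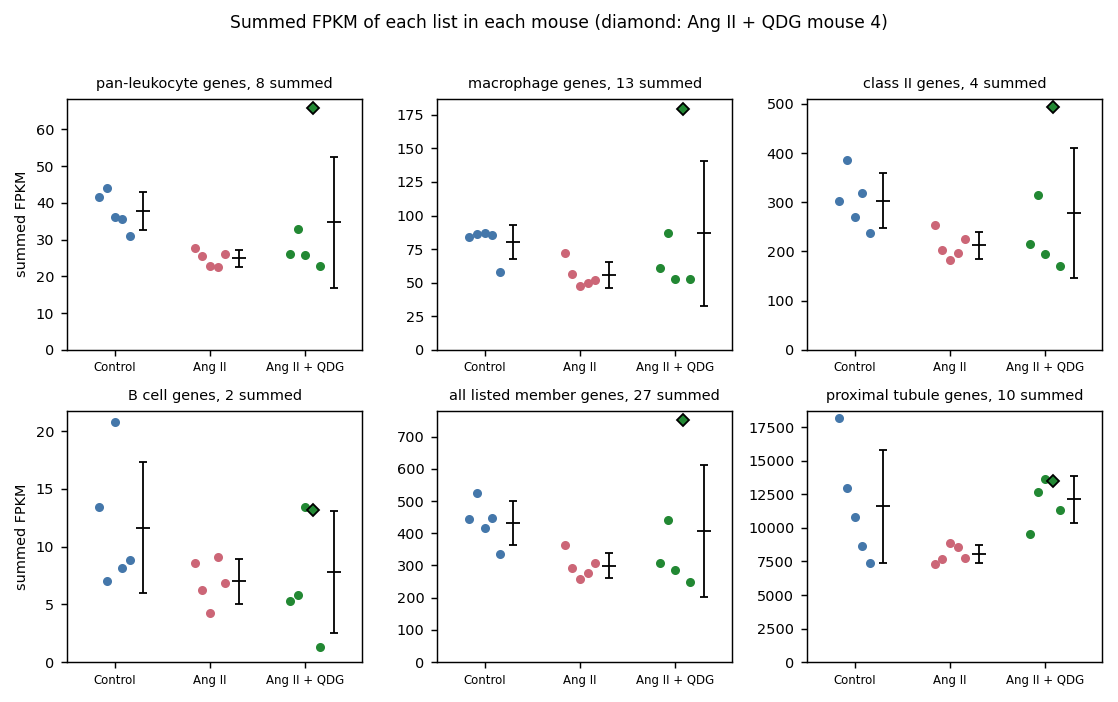
Summed FPKM (vertical axes, from 0) of the pan-leukocyte, macrophage, class II and B cell members, of all 27 listed members and of 10 proximal tubule genes, with 1 point per mouse and the mean ± SD of each group beside the points. Ang II + QDG mouse 4 (diamond) lies above the 14 other mice in the pan-leukocyte, macrophage, class II and all-member panels and among them in the B cell and proximal tubule panels.

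The first comparison, Ang II vs. Control, asks whether leukocyte genes differ in the kidney after 28 days of Ang II infusion. No member passed an adjusted p under 0.05 (limma, Benjamini-Hochberg over 12359 genes), where 5.95% of all genes tested did, and none met the study's rule of a fold change of at least 2 with an unadjusted p under 0.05, against 1.04%. At an unadjusted p under 0.05 there were 5 members, all of them lower in Ang II, where 4.82% of all genes tested were lower by that rule: Ctss, H2-Aa, Coro1a, Tyrobp and Cd74. The log2 fold change was below 0 for 23 of the 25 members (35.2% of all genes tested), with a median of −0.39 against 0.083 for all genes tested. The groups did not overlap for 3 members, Adgre1, Ctss and H2-Aa, each lower in every Ang II mouse than in any Control mouse, which holds for 1.42% of all genes tested. By subgroup the medians were −0.42 for the 8 pan-leukocyte genes, −0.34 for the 11 tested macrophage genes and −0.47 for the 4 class II genes.

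The spread of a gene in this model is shared by the 3 groups, so Ang II + QDG mouse 4 enters the test of Ang II vs. Control although it belongs to neither group. Without this mouse the fold changes stay as they are and the SE is smaller for 24 of the 25 members (not for Ptprc). Then 3 members passed an adjusted p under 0.05 (5.61% of all genes tested in this fit), all lower in Ang II: Ctss (adjusted p = 0.0155 from limma), Fcer1g (adjusted p = 0.0346) and H2-Aa (adjusted p = 0.0374), with 13 members lower at an unadjusted p under 0.05 (4.9% of all genes tested). The 5 members at an unadjusted p under 0.05 became 2 without Control mouse 1 and 2 without Ang II mouse 4, fits for which the share of all genes is not given here.

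Setting Ang II + QDG against Ang II asks what QDG adds to the infusion. No member passed an adjusted p under 0.05 (1.81% of all genes tested), and Lyz2 alone had an unadjusted p under 0.05, being higher with QDG, where 6.01% of all genes tested were higher by that rule. The log2 fold change was above 0 for 20 of the 25 members (46.3% of all genes tested), with a median of 0.30 against −0.018 for all genes tested. Without Ang II + QDG mouse 4 the median of the members was 0.063, 18 of 25 were above 0 (47.1% of all genes tested), and Lyz2 remained the member with an unadjusted p under 0.05 (5.18% of all genes tested were higher by that rule). That count of 1 became 2 to 4 without Ang II mouse 1, 2 or 5 or Ang II + QDG mouse 1, 2 or 3, and 6 without Ang II + QDG mouse 5. The share of all genes by that rule in those fits is not given here, so these counts are not set against it.

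With QDG relative to Control, no member passed an adjusted p under 0.05 (0.129% of all genes tested), and Fcgr3 and Coro1a had an unadjusted p under 0.05 and were lower with QDG (3.72% of all genes tested were lower by that rule). The members' median log2 fold change was −0.12 against 0.059 for all genes tested. Without Ang II + QDG mouse 4 it was −0.38, the value was below 0 for 22 of 25 (37.3% of all genes tested; 19 of 25 and 37.5% with the mouse), and 10 members, among them all 4 class II genes, had an unadjusted p under 0.05 and were lower (again 3.72% of all genes tested), with still 0 at an adjusted p under 0.05. The 3 comparisons share mice, so their values are not independent of each other.

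**Figure D2:**
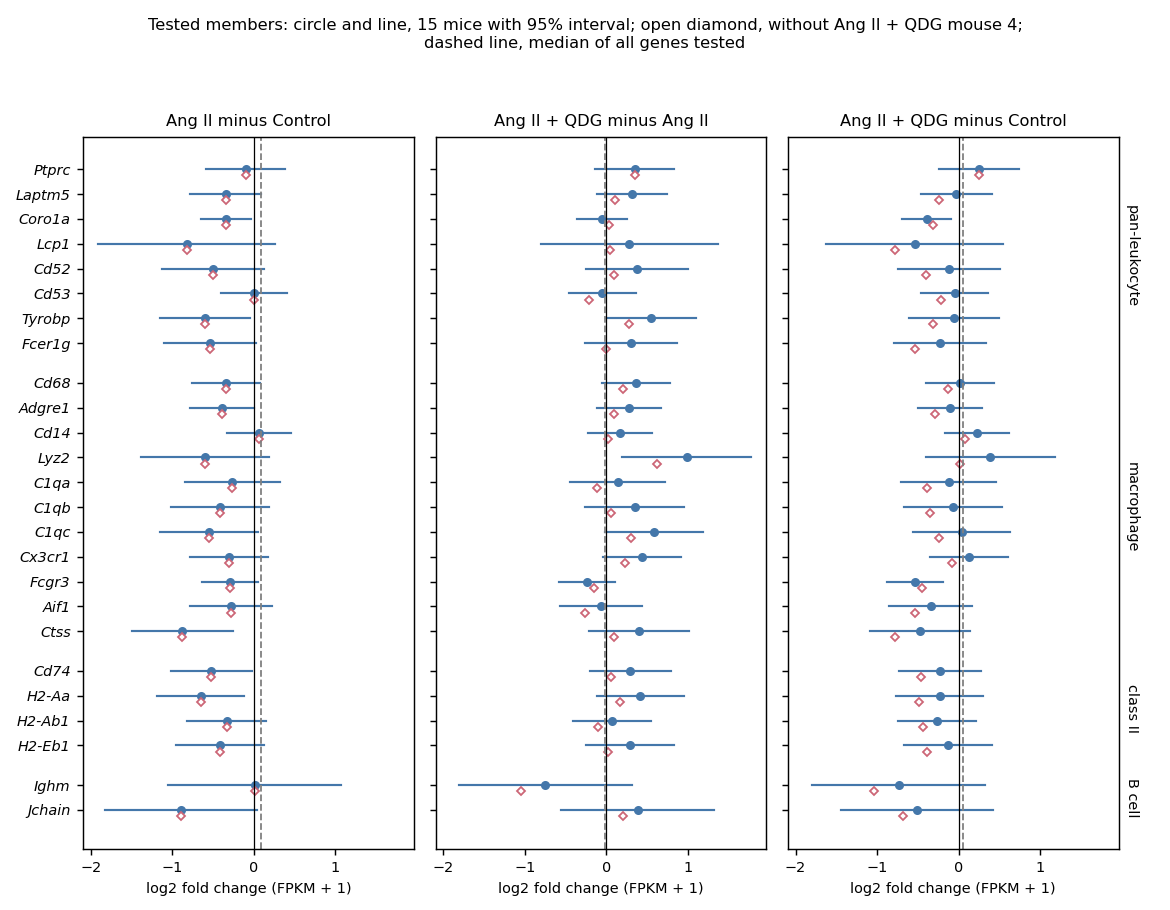
Fold change in log2(FPKM + 1) (horizontal axes) of the 25 tested members in the 3 comparisons, as circles with 95% confidence intervals from limma over 15 mice and as open diamonds without Ang II + QDG mouse 4. In Ang II minus Control 23 of the 25 circles lie below 0 while the dashed line, the median of all genes tested, is at 0.083; in both panels with QDG the diamonds mostly lie to the left of the circles.

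The class II genes were the most abundant members. Cd74, the invariant chain that escorts class II molecules to endosomes, had 139.6, 179.8, 119.8, 137 and 106 FPKM in Control mice 1 to 5. Its values were 112, 88.9, 85.6, 85.2 and 96.7 FPKM in the Ang II mice and 91.9, 139, 88.8, 218 and 79.3 FPKM in the Ang II + QDG mice. Ang II mouse 1 was above the lowest Control mouse, so the groups overlapped by 1 mouse, and Ang II + QDG mice 4 and 2 were the highest of their group. The means were 136 ± 27.8 FPKM for Control and 93.7 ± 11.2 FPKM for Ang II (SD, 5 mice per group). This was a difference of −0.52 on the log2 scale (SE 0.23, limma adjusted p = 0.2).

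H2-Aa, the alpha chain of the class II molecule I-A (chromosome 17, 34282744 to 34287823 on mm10), had 65.6, 70.5, 57.1, 69.6 and 49.6 FPKM in the Control mice. It had 49.4, 35.8, 32.1, 38.7 and 41.2 FPKM in the Ang II mice and 46.5, 63.0, 38.0, 107 and 33.3 FPKM in the Ang II + QDG mice. All 5 Ang II mice were below all 5 Control mice (Ang II mouse 1 and Control mouse 5 were the closest), and the Ang II + QDG mice spanned both groups. Its log2 fold change was −0.65 in Ang II vs. Control (SE 0.25, limma adjusted p = 0.133, and 0.0374 without Ang II + QDG mouse 4). With QDG relative to Ang II alone it was 0.42 with a 95% interval of −0.11 to 0.95, and 0.17 without that mouse.

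H2-Ab1, the beta chain of I-A, and H2-Eb1, the beta chain of I-E, had means of 50.4 ± 10.98 and 53.9 ± 10.1 FPKM in Control (SD, n = 5). In Ang II they had 39.3 ± 5.44 and 39.9 ± 5.61 FPKM. These were log2 differences of −0.34 (limma adjusted p = 0.411) and −0.42 (adjusted p = 0.354), and both overlapped between the groups. The 4 class II members summed to 303, 386, 271, 318 and 237 FPKM in Control mice 1 to 5, 254, 203, 183, 196 and 224 FPKM in Ang II mice and 215, 316, 194, 493 and 171 FPKM in Ang II + QDG mice. Among the mice given QDG, mouse 2 was within the Control range, mice 1, 3 and 5 were below the lowest Control mouse, and mouse 4 was above the highest.

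Class II genes are known for a shared promoter layout, with an X box bound by RFX and a Y box bound by NF-Y, and genes of macrophages for sites of the factor PU.1. RefSeq promoters on GRCm38.p6 (250 bases before to 50 after the gene start) were at hand for 26 of the 36 members, with 30 promoters in all; Cd52, Tyrobp, Adgre1, Csf1r, Cd14, C1qa, Cd74, H2-Ab1, Cd4 and Ighm had none there. They were searched on both strands for GATTGG (the core of the Y box), TAGCAAC (1 form of the X box core) and GAGGAA (a PU.1 core). GATTGG was in both class II promoters at hand and in 16.1% of 32851 promoters of all genes, TAGCAAC in 1 of those 2 and in 3.66%, and GAGGAA in 9 of 14 promoters of macrophage members and in 28.3%. The GAGGAA core was not particular to macrophage members, being in 3 of 9 pan-leukocyte, 2 of 3 T cell, 1 of 2 B cell and 0 of 2 class II promoters. The promoters of H2-Aa and Ctss are printed because these genes did not overlap between Control and Ang II, and that of H2-Eb1 because it shows the class II layout. Capitals mark the matches, GATTGG, its reverse complement and TAGCAAC in the class II promoters and GAGGAA or its reverse complement in that of Ctss.
H2-Aa (chr17:34287774-34288073, minus strand): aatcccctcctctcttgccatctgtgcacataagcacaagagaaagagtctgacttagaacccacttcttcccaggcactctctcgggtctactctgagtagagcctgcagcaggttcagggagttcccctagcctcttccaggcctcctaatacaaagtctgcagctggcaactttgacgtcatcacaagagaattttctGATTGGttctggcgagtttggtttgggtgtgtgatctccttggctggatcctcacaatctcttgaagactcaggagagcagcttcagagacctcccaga
H2-Eb1 (chr17:34305617-34305916, plus strand): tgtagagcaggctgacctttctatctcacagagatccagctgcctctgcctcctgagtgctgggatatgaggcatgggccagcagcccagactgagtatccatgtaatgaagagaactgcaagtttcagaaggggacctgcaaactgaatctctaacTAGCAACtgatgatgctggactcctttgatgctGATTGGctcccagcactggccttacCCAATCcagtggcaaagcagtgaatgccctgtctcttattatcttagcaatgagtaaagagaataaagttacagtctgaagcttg
Ctss (chr3:95526536-95526835, plus strand): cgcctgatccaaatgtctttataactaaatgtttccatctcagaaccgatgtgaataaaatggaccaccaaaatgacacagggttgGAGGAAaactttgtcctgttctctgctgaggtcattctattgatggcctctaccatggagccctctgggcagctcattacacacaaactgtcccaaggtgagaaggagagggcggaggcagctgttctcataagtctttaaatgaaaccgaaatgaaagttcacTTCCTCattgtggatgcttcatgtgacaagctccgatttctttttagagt
Counted from the first printed base, GATTGG begins at base 202 in H2-Aa and at base 191 in H2-Eb1, where TAGCAAC begins at base 158. In Ctss, GAGGAA begins at base 87 and its reverse complement at base 251. These matches are letters only and were not tested for binding.

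Ctss, cathepsin S, the endosomal protease that trims the invariant chain in antigen-presenting cells (chromosome 3, 95526786 to 95556403), had 18.0, 18.9, 15.8, 20.1 and 10.8 FPKM in Control mice 1 to 5. In the Ang II mice it had 9.51, 8.49, 8.62, 7.22 and 8.56 FPKM and in the Ang II + QDG mice 8.46, 13.7, 7.54, 28.3 and 7.75 FPKM. No Ang II mouse reached the lowest Control value, 3 of the mice given QDG were within the range of Ang II, and mouse 4 was the highest of all. Its mean was 16.7 ± 3.67 FPKM for Control and 8.48 ± 0.817 FPKM for Ang II (SD, 5 mice per group), and its log2 fold change of −0.88 had an SE of 0.29 and an adjusted p of 0.0868 from limma (0.0155 without Ang II + QDG mouse 4). Of its 2 listed transcripts, both of 1355 bases, ENSMUST00000015667 had a mean of 9.31 FPKM in Control and 1.76 in Ang II, and ENSMUST00000116304 had 7.39 and 6.72. With the more abundant transcript in place of the sum, the log2 fold change was −0.14 (adjusted p = 0.833 from limma), so the value depends on summing both.

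Lyz2, lysozyme of macrophages and granulocytes (chromosome 10, 117277331 to 117282321), had 18.4, 17.5, 21.6, 9.60 and 12.6 FPKM in the Control mice. Its values were 17.2, 8.23, 6.41, 11.7 and 8.18 FPKM in the Ang II mice and 15.3, 20.3, 14.9, 58.0 and 12.6 FPKM in the Ang II + QDG mice. The groups overlapped in each comparison, and Ang II + QDG mouse 4 was at 3.84 times the median of the 4 other mice of its group. With QDG relative to Ang II alone its log2 fold change was 0.99 (SE 0.37, limma adjusted p = 0.192), and 0.62 without that mouse (adjusted p = 0.302). Reads of Lyz2 can be shared with Lyz1, its near-identical neighbour.

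Fcgr3, the low-affinity receptor for immunoglobulin G on macrophages and natural killer cells (chromosome 1, 171051174 to 171064935), had 2.99, 2.54, 3.70, 3.63 and 3.44 FPKM in the Control mice. It had 2.26, 2.09, 3.59, 2.15 and 2.35 FPKM in the Ang II mice and 1.73, 3.32, 1.65, 1.31 and 1.96 FPKM in the Ang II + QDG mice. Ang II mouse 3 was high for its group and Ang II + QDG mouse 4, the highest mouse for most members, was here the lowest of the 15. Its log2 fold change was −0.53 with QDG relative to Control (SE 0.16, limma adjusted p = 0.158) and −0.30 in Ang II vs. Control (adjusted p = 0.303), where the more abundant of its 2 transcripts alone gave 0.24. Fcgr3 shares sequence with Fcgr2b, so reads may be divided between them with error.

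The other tested macrophage members are described by their means, and Adgre1 and the complement genes were singled out after their values were seen. Adgre1, which encodes the macrophage surface protein F4/80, had 1.48, 1.37, 2.17, 1.53 and 1.26 FPKM in the Control mice, 1.19, 1.09, 0.763, 0.950 and 0.765 in the Ang II mice and 1.09, 1.42, 1.04, 3.00 and 0.792 in the Ang II + QDG mice. The Control and Ang II mice did not overlap, and the log2 fold change was −0.39 (SE 0.18, limma adjusted p = 0.223). C1qa, C1qb and C1qc encode the 3 chains of C1q, which starts the classical complement pathway and is made by tissue macrophages. Their means were 13.3 ± 2.39, 14.4 ± 3.36 and 6.77 ± 1.60 FPKM for Control and 10.96 ± 2.39, 10.3 ± 0.685 and 4.37 ± 1.49 FPKM for Ang II (SD, 5 mice per group). All 3 overlapped between these groups and were highest in Ang II + QDG mouse 4, at 25.7, 30.7 and 15.8 FPKM. Cd68, a lysosomal glycoprotein of phagocytes, Cx3cr1, the fractalkine receptor, and Aif1, an actin-binding protein of activated macrophages, had log2 fold changes of −0.34, −0.31 and −0.28 in Ang II vs. Control. Cd14, the co-receptor for lipopolysaccharide, was the 1 macrophage member above 0 there, at 0.06 (95% interval −0.33 to 0.46), and was below 0 under median scaling and quantile normalization.

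6 macrophage members were not tested. Csf1r, the receptor for macrophage colony-stimulating factor, was listed at 0.00536 to 0.0550 FPKM in Control and reached 2.20 FPKM in Ang II mouse 2, and Mrc1, the mannose receptor, ranged from 0.571 to 1.89 FPKM, with the highest value in Ang II + QDG mouse 4. Ccr2, the receptor that draws monocytes from the blood, was listed through 1 transcript in Control (mean 0.689 FPKM) and another in the other groups (means 0.306 and 0.619 FPKM). Itgax, the CD11c integrin of dendritic cells and some macrophages, was listed in Control only, at a mean of 0.723 FPKM. Cd163, a haemoglobin scavenger receptor, and Itgam, the CD11b integrin, had no listed transcript. A gene listed in 1 group only passed the 0.5 FPKM limit through that group, so no fold change is given for it.

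**Figure D3:**
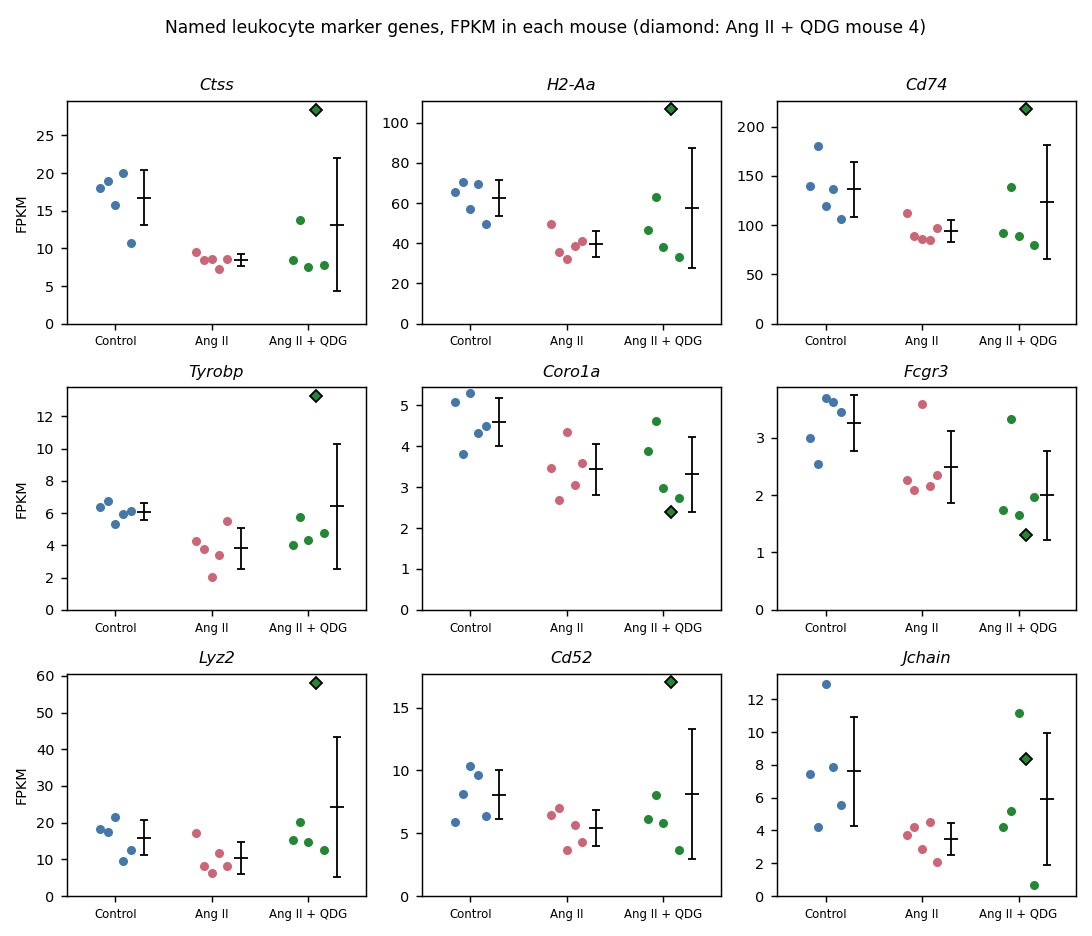
FPKM (vertical axes, from 0) of the 9 members chosen by an unadjusted p under 0.05 in any comparison or by the highest mean of a subgroup, with 1 point per mouse and the mean ± SD of each group (n = 5) beside the points. Ang II + QDG mouse 4 (diamond) is the highest mouse for Ctss, H2-Aa, Cd74, Tyrobp, Lyz2 and Cd52 and the lowest for Coro1a and Fcgr3. The values of Coro1a leave out a coding transcript listed outside Control only.

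Among the pan-leukocyte genes, Tyrobp, the adaptor DAP12 that signals for many receptors of myeloid and natural killer cells (chromosome 7, 30413760 to 30417585), had 6.35, 6.76, 5.34, 5.92 and 6.12 FPKM in the Control mice. It had 4.27, 3.80, 2.06, 3.39 and 5.53 FPKM in the Ang II mice and 4.002, 5.73, 4.32, 13.2 and 4.78 FPKM in the Ang II + QDG mice. The Control mice were close together, Ang II mouse 5 alone reached their range, and Ang II + QDG mouse 4 was the highest of all. The log2 fold change was −0.60 in Ang II vs. Control (SE 0.26, limma adjusted p = 0.18) and 0.55 with QDG relative to Ang II alone (adjusted p = 0.308), the latter 0.28 without that mouse.

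Fcer1g, the gamma chain shared by Fc receptors, was singled out after its values were seen. It had 8.64, 8.45, 7.36, 7.10 and 4.94 FPKM in the Control mice, 4.85, 4.73, 5.03, 3.59 and 5.21 in the Ang II mice and 3.96, 4.83, 5.14, 15.2 and 4.72 in the Ang II + QDG mice. Control mouse 5 was the 1 Control mouse within the Ang II range, and without Ang II + QDG mouse 4 the mice given QDG lay at the level of the Ang II mice. Its log2 fold change was −0.53 in Ang II vs. Control, with an SE of 0.26 over 15 mice (limma adjusted p = 0.248) and of 0.13 without that mouse (adjusted p = 0.0346).

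Coro1a, the actin regulator coronin 1A of leukocytes (chromosome 7, 126699773 to 126707787), had 5.07, 3.81, 5.29, 4.33 and 4.48 FPKM in the Control mice. It had 3.48, 2.69, 4.35, 3.06 and 3.60 FPKM in the Ang II mice and 3.88, 4.61, 2.97, 2.38 and 2.73 FPKM in the Ang II + QDG mice. The groups overlapped, and in these sums mouse 4 of the last group was the lowest of the 15. Another coding transcript was listed outside Control only and so left out of these sums. It was at most 0.852 FPKM in the Ang II mice, and 0 to 4.48 FPKM among the mice given QDG, with a mean of 0.912 FPKM. The rank of mouse 4 with that transcript added is not given here. The log2 fold change was −0.34 in Ang II vs. Control (SE 0.14, limma adjusted p = 0.173) and −0.39 with QDG relative to Control (adjusted p = 0.229). With QDG relative to Ang II alone it was −0.05, and 0.13 with all listed transcripts.

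Cd52, a small surface glycoprotein of lymphocytes and myeloid cells (chromosome 4, 134082448 to 134095082), had the highest mean of the pan-leukocyte genes. It had 5.93, 8.14, 10.3, 9.62 and 6.37 FPKM in the Control mice, 6.48, 7.04, 3.69, 5.64 and 4.30 in the Ang II mice and 6.17, 8.07, 5.79, 17.0 and 3.64 in the Ang II + QDG mice. All 3 groups overlapped, with Ang II + QDG mouse 4 the highest, and the log2 fold change in Ang II vs. Control was −0.50 (SE 0.29, limma adjusted p = 0.337). Laptm5, a lysosomal protein of haematopoietic cells, Cd53, a tetraspanin, and Ptprc, which encodes CD45, had log2 fold changes of −0.35, −0.0021 and −0.10 there, and all overlapped between the groups. The sum for Ptprc holds 1 retained-intron transcript only, since 2 coding transcripts were listed in Control alone. Lcp1, the actin-bundling protein L-plastin, had 6.59, 7.92, 0.386, 0.414 and 3.09 FPKM in the Control mice, so its mean of 3.68 ± 3.48 FPKM (SD, n = 5) rests on mice 1, 2 and 5.

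The lymphocyte genes gave few values. None of the 4 T cell members was tested: Cd3g, a chain of the T cell receptor complex, was listed in Control only at a mean of 0.530 FPKM, and Cd3e, Cd4 and Cd8a had no listed transcript. Of the 3 B cell members, Cd79a, a signalling chain of the B cell receptor, had no listed transcript. Jchain, the joining chain of secreted immunoglobulins made by plasma cells (chromosome 5, 88519809 to 88527891), had 7.43, 4.23, 13.0, 7.86 and 5.53 FPKM in the Control mice, 3.73, 4.24, 2.85, 4.49 and 2.08 in the Ang II mice and 4.19, 5.20, 11.2, 8.37 and 0.656 in the Ang II + QDG mice. The groups overlapped, and values within the QDG group ran from the lowest to the second highest of the 15 mice. Its log2 fold change in Ang II vs. Control was −0.89 (SE 0.43, limma adjusted p = 0.243). Ighm, the constant region of immunoglobulin M, ranged from 0.313 to 7.81 FPKM within Control alone, and its log2 fold change of 0.01, below 0 under median scaling and quantile normalization, had a 95% interval of −1.05 to 1.07.

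Lists of further immune genes give the setting. Of 12 other genes of class II loading and control, 8 were tested and none passed an adjusted p under 0.05 in any comparison, by limma. H2-DMa, which helps to load peptide and had a lower mean in Ang II (1.89 ± 0.968 FPKM) than in Control (3.65 ± 0.696 FPKM; SD, n = 5 each), had a log2 fold change of −0.74 (limma adjusted p = 0.0645) and was singled out after its values were seen. Of 40 other macrophage genes 19 were tested, with 12 below 0 in Ang II vs. Control and a median of −0.099, and none passed in any comparison over 15 mice. Without Ang II + QDG mouse 4, Cybb, a subunit of the phagocyte NADPH oxidase, passed in Ang II vs. Control at −0.44 on the log2 scale (limma adjusted p = 0.0433, and 0.147 with that mouse). Only 1 of 24 further T and natural killer cell genes (Trac) and 3 of 14 genes of neutrophils and inflammatory monocytes (S100a9, Ly6c2 and Plac8) were abundant enough to test. Trac, at a mean of 0.851 FPKM over the 15 mice, was at −0.49 in Ang II vs. Control (limma adjusted p = 0.147). Plac8 was at −0.89 in Ang II vs. Control (limma adjusted p = 0.0609) and passed without that mouse (adjusted p = 0.0454); neither it nor Cybb overlapped between Control and Ang II, and both were singled out after their values were seen.

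In Ang II vs. Control 3 of the 50 tested genes of these further immune lists passed an adjusted p under 0.05 over 15 mice, where 5.95% of all genes tested did, and 5 of 50 did without Ang II + QDG mouse 4, where 5.61% of all genes tested did. Cxcl10, a chemokine that draws T cells and is induced by interferon, fell from 4.32 ± 1.51 to 1.49 ± 0.419 FPKM (SD, 5 mice per group), which is −1.06 on the log2 scale (limma adjusted p = 0.0111). Cd83, a surface protein of mature dendritic cells, fell from 1.27 ± 0.301 to 0.417 ± 0.235 FPKM, or −0.68 on the log2 scale (limma adjusted p = 0.0159). Xbp1, a transcription factor of the unfolded protein response that plasma cells need and many other cells use, rose from 21.02 ± 1.98 to 27.3 ± 0.940 FPKM, or 0.37 on the log2 scale (limma adjusted p = 0.0286). All 3 were without overlap between the groups. The lists they come from were mixed in direction. Of 11 tested recruitment genes, the list of Cxcl10, 6 were below 0 and 5 above, with a median of −0.053. Of 2 tested dendritic cell, mast cell and eosinophil genes, the list of Cd83, 1 was below 0 and 1 above. Of 6 tested B and plasma cell genes, the list of Xbp1, 3 were below 0 and 3 above (−1.19 to 2.34). Cxcl10 and Cd83 passed the test under each of the 24 alternatives run, and Xbp1 did not under quantile normalization, median scaling or the more abundant transcript, nor without Control mouse 1 or 5 or Ang II mouse 2, 4 or 5 (adjusted p up to 0.801).

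Some markers of other kidney cells also moved between these groups. Podxl, of podocytes, Ehd3, of glomerular endothelium, and Tagln and Pdgfrb, of mural cells, passed the test at log2 fold changes of 0.35, 0.51, 0.59 and 1.13. In the endothelial list 1 of 8 tested genes passed and in the fibroblast and mural list 2 of 10 (5.95% of all genes tested). In the proximal tubule and distal nephron lists 0 of 10 and 0 of 9 passed. Log2 fold changes ran from −0.37 to 0.51 in the endothelial and from −0.49 to 1.13 in the mural list. Ang II mouse 1 was the highest of the 15 mice for 7 of the 10 genes of the mural list (12.0% of all genes tested). Podxl, Ehd3, Tagln and Pdgfrb lost the call under median scaling, quantile normalization and without single mice of either group (limma adjusted p up to 0.121, for Podxl under a scaling). Podxl and Pdgfrb also lost it after rescaling to the total without mitochondrial transcripts, and Ehd3 and Tagln with only the 2 groups compared. Tagln and Pdgfrb lost it with the more abundant transcript, and Pdgfrb with a pseudocount of 0.1 or without Ang II + QDG mouse 3 or 4. The log2 fold change of Pdgfrb ran from 1.04 to 2.52 in the 9 settings that leave out no mouse. Hba-a1, a globin of red blood cells, rose by 1.17 on the log2 scale with QDG relative to Control (adjusted p = 0.0257, up to 0.0876 in the alternatives) and was at 0.67 in Ang II vs. Control (adjusted p = 0.0508, and 0.0345 without Ang II + QDG mouse 4). The share of FPKM from mitochondrial transcripts was 18.5% to 20.7% in Control, 15.4% to 16.0% in Ang II and 16.9% to 19.8% in Ang II + QDG. The part of these differences in the values of the leukocyte genes was not tested.

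Most members were high in Ang II + QDG mouse 4. For the 25 tested members the median log2 ratio of this mouse to the median of the 4 other mice of its group was 1.19 on the log2(FPKM + 1) scale, against −0.0094 for all genes tested, and it was 1.16 for pan-leukocyte, 1.11 for macrophage and 1.29 for class II members. The ratio was above 0.5 for 22 of the 25 members and for 819 of the 12359 genes tested. The 19 other macrophage genes had a median of −0.082, with 4 of 19 highest of the 15 mice in this mouse (7.4% of all genes tested). The 8 genes of class II loading and control had a median of 0.087. Lgals3, of the other macrophage genes, was at 0 FPKM in this mouse and at 11.1 to 22.1 FPKM in the 4 other mice given QDG. Igha, of the B and plasma cell list, was at 0.013 FPKM here and at 0.448 to 21.2 FPKM there. Both genes were singled out after their values were seen. The summed FPKM of the list of neutrophils and inflammatory monocytes was 77.5 in this mouse, 8.38 times the median of the 4 other mice given QDG, and 2 genes of the list carried most of it. These were S100a9 at 39.3 FPKM (0 to 2.81 FPKM in the 14 other mice) and S100a8, below the filter, at 25.9 FPKM, calcium-binding proteins stored by neutrophils and monocytes that were singled out after their values were seen. Of the other 2 summed genes, Plac8 had 9.15 FPKM, 1.70 times the median of those 4 mice, and Ly6c2 had 3.15 FPKM, 1.06 times it. Summed FPKM of the proximal tubule, distal nephron, podocyte and endothelial lists in this mouse was 1.12, 1.09, 0.92 and 1.04 times the median of the 4 other mice given QDG, that of the fibroblast and mural list 1.14 times and that of the red blood cell list 0.822 times. Single genes of the fibroblast and mural list had log2 ratios from −0.29 to 3.13, with a median of −0.059. The sum of further T and natural killer cell genes was 1.56 times that median. Of 2 tested genes on the tubular injury list, Lcn2 was at 3.13 times and Vim at 0.971 times the median of its FPKM in those 4 mice. With 1 mouse of 5, this difference had no replicate and was not tested.

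**Figure D4:**
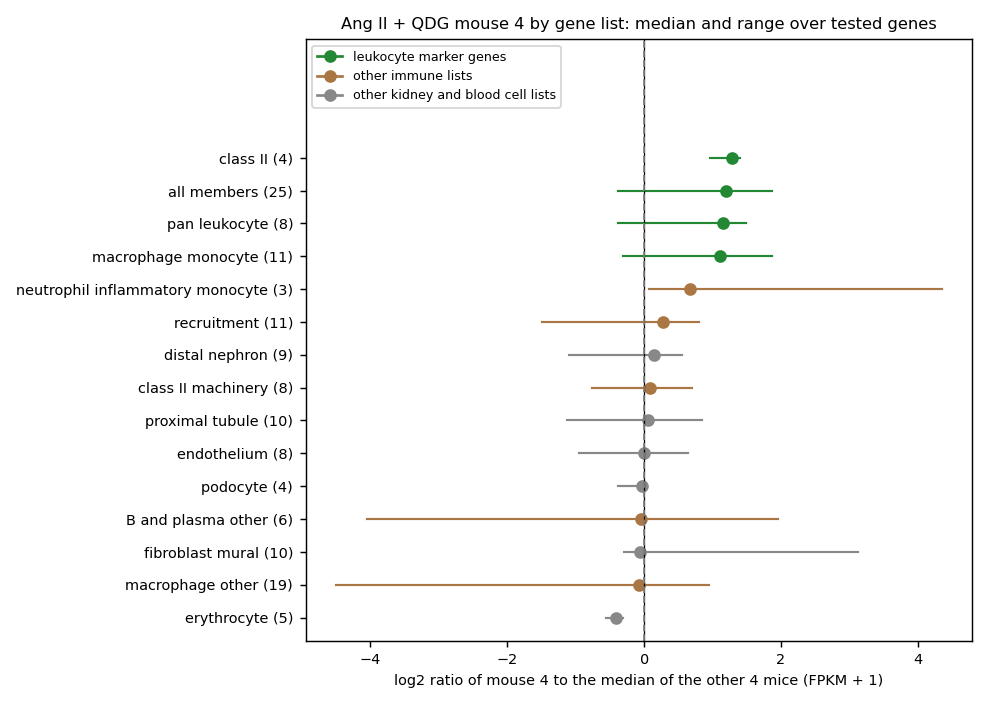
Log2 ratio of Ang II + QDG mouse 4 to the median of the 4 other mice of its group (horizontal axis, log2(FPKM + 1) scale) for each gene list with at least 3 tested genes, as the median (point) and the range over its tested genes (line), with the number of tested genes in brackets. The medians of the leukocyte marker genes lie between 1.11 and 1.29, and the dashed line marks the median of all genes tested at −0.0094.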

How the data were processed

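The members and the gene lists were chosen with earlier results of these data known. RNA was prepared by rRNA depletion, per the labels; the study's methods also describe a poly(A) selection, and which applied is not settled here. Each deposited file gives, for 1 mouse, a value per transcript, taken here as FPKM because a value times the transcript's length was a whole multiple (within 0.05) of 1 constant per mouse for 98.5% to 98.7% of values under 200 reads. The submitters' processing notes name mm10 and limma; the aligner and quantifier are not given in the sources used here, and depth is the total those constants imply. The 15 libraries differed from each other (at most 0.145% identical values in a pair).

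FPKM of annotated transcripts listed for all mice were summed per gene, log2(FPKM + 1) was formed, and genes that reached 1 FPKM in 5 or more mice were fitted with limma 3.58.1 (R 4.3.3; trend, a mean per group, 12 residual degrees of freedom, two-sided), adjusted by Benjamini-Hochberg within a comparison. Fold changes are on the log2(FPKM + 1) scale, which makes those of low genes smaller. The fit was also run on simulated data as a check of the code, and no result given here rests on that check. Alternatives were 9 settings and leaving out each of 15 mice. Values in each mouse are given for members with an unadjusted p under 0.05 in a comparison and for the most abundant member of each subgroup; from the other lists, genes with an adjusted p under 0.05 (at most 3 per list and comparison) are named, except 1 that is not reported here. Where the labels do not say that mice of a group were handled separately, p-values measure the spread between these samples. Promoters came from RefSeq tables.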

Additional observations from a re-analysis of the deposited data

Results flagged for a closer look

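In a group of 5 mice, a mouse was flagged where its gap to the nearest other mouse, divided by the range of the group, was above 0.71. Of 75 groups (25 tested members in 3 groups), 9 were flagged. Chance flags about 5% of independent groups with normal values. These 75 groups share 15 mice and are not independent, so the 9 are not set against that rate. 6 of the 9 were Ang II + QDG mouse 4 as the highest of its group: Tyrobp at 13.2 FPKM (the 4 others at 4.002 to 5.73), Fcer1g at 15.2 FPKM (3.96 to 5.14), Adgre1 at 3.00 FPKM (0.792 to 1.42), Cd14 at 6.32 FPKM (3.29 to 3.66), Lyz2 at 58.0 FPKM (12.6 to 20.3) and C1qc at 15.8 FPKM (4.57 to 7.61). The other 3 were Cd53 in Control mouse 5, the lowest at 1.201 FPKM (2.01 to 2.20 in the 4 others), Cd68 in Control mouse 4, the lowest at 1.18 FPKM (1.95 to 2.21), and Fcgr3 in Ang II mouse 3, the highest at 3.59 FPKM (2.09 to 2.35).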

How the results depend on the processing

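Which left-out mouse moved a result most differed between results. Depth did not limit the abundant members, while genes under the 0.5 FPKM limit of the lists, most T cell genes among them, could not be compared. No paired analysis was possible because the labels give no replicate numbers shared between groups.

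In Ang II vs. Control, the members with an adjusted p under 0.05 (0 of 25) numbered 1 with all listed transcripts (Ptprc, whose transcripts listed in Control alone were then set to 0 elsewhere), 2 with only the 2 groups compared (Ctss at −0.88, adjusted p = 0.0247, and H2-Aa at −0.65, adjusted p = 0.0317, from limma) and 0 to 3 when 1 mouse was left out. Those with an unadjusted p under 0.05 (5) numbered 12 with quantile normalization, 11 with median scaling, 14 with only the 2 groups compared, 3 of 24 with the more abundant transcript and 2 to 13 when 1 mouse was left out. For most of these alternatives the share of all genes by that rule is not given here. A change in these counts is therefore not read as particular to the members. All genes with an adjusted p under 0.05 (735, of which 612 were higher and 123 lower) numbered 353 with the more abundant transcript, 457 with 2 groups and 338 to 798 without 1 mouse (338, 362, 398 and 348 without Control mouse 1 or 3 or Ang II mouse 2 or 5). They were 227 higher and 266 lower with quantile normalization and 214 higher and 287 lower with median scaling. The log2 fold change of Fcgr3 turned to 0.24 with the more abundant transcript.

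In Ang II + QDG vs. Ang II, the members with an unadjusted p under 0.05 (1) numbered 2 with a pseudocount of 0.1, with quantile normalization, with all listed transcripts and with the more abundant transcript, 3 with median scaling and with rescaling to the total without mitochondrial transcripts, and 1 to 6 without 1 mouse. Here too, the share of all genes by that rule is not given for most of these alternatives. All genes with an adjusted p under 0.05 (224, 65 higher and 159 lower) numbered 58 with 2 groups and 53 to 249 without 1 mouse (53 to 81 without Ang II mouse 2 or 5 or any of Ang II + QDG mice 2 to 5), and were 97 higher and 97 lower with quantile normalization and 68 higher and 99 lower with median scaling. Coro1a turned from −0.054 to 0.13 with all listed transcripts, and without 1 mouse it ran from −0.15 to 0.028.

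In Ang II + QDG vs. Control, the members with an unadjusted p under 0.05 (2) numbered 2 to 10 without 1 mouse, the 10 being without Ang II + QDG mouse 4. Among these fits the share of all genes by that rule is given only for the fit with 10. All genes with an adjusted p under 0.05 (16, 12 higher and 4 lower) numbered 80 with all listed transcripts, 6 with the more abundant transcript, 4 with 2 groups and 0 to 110 without 1 mouse (110 and 36 without Control mouse 2 or 5, 26 without Ang II mouse 3, 0 to 7 without Control mouse 1 or 4 or Ang II + QDG mouse 1, 2 or 3), and were 8 higher and 7 lower with quantile normalization and 10 higher and 12 lower with median scaling. Ctss turned to 0.29 with the more abundant transcript, and without 1 mouse Tyrobp ran from −0.32 to 0.057 and Cd52 from −0.41 to 0.083. Except where a cause is given, the cause was not tested.

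The members' median log2 fold change minus that of all genes was −0.47 in Ang II vs. Control (−0.51 to −0.45 when 1 mouse was left out). It was 0.32 in Ang II + QDG vs. Ang II (0.077 to 0.44), where 0.077 was without Ang II + QDG mouse 4. It was −0.18 in Ang II + QDG vs. Control (−0.44 to −0.054), where −0.44 was without that mouse and −0.054 without Ang II + QDG mouse 5.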
